A study of Mus musculus with 6 samples.

Results

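The 10 genes described here encode ligands and receptors of angiogenic signalling: Vegfa, Vegfb, Vegfc and Pgf with their receptor genes Kdr and Flt1, the angiopoietin genes Angpt1 and Angpt2, and the apelin gene Apln with its receptor gene Aplnr. They were chosen by symbol among 47729 Ensembl gene IDs, and each symbol matched 1 ID. Left ventricular myocardium was taken from mice on day 9 after TAC, the surgical narrowing of the transverse aorta that loads the left ventricle with pressure. RNA was sequenced from 3 control and 3 Treg libraries. The Treg label marks mice that, by the title of the series, were given regulatory T cells made in culture and deprived of CD28, a costimulatory receptor of T cells. All 6 libraries come from operated hearts. The labels give neither the strain, sex or age of the mice nor what the control mice received, and unoperated hearts were not analysed here.

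VEGF proteins are secreted growth factors that endothelial cells read through receptor tyrosine kinases. VEGF-A acts mainly through VEGFR2, encoded by Kdr, while VEGFR1, encoded by Flt1, binds VEGF-A, VEGF-B and placental growth factor and limits the VEGF-A that reaches VEGFR2. Angiopoietin 1 from cells around the vessel activates the endothelial receptor Tie2 and steadies the vessel wall. Angiopoietin 2, released by activated endothelium, can oppose it at the same receptor. Apelin is a small peptide made by sprouting endothelium, and its receptor is found on endothelium and heart muscle, where apelin raises contractility. In the pressure-loaded heart, capillary growth has to keep pace with the enlarging muscle.

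Library totals lay between 28937253 and 29979080 counts. Control replicate 3 stood apart: it was over 2-fold above every other library at 417 genes and over 2-fold below at 836, against 4 to 52 and 7 to 84 genes in the other libraries. Heart muscle markers were high in every library (summed 44290 to 72940 CPM, counts scaled to TMM-adjusted library size, over 12 of 12 markers), and lowest in control replicate 3. Treg replicate 3 also held atrial transcripts (Myl7 at 1202 counts, the lowest library at 1). Results that rest on control replicate 3 or Treg replicate 3 are given with and without them. In bulk tissue, fewer cells of a type and less RNA per cell cannot be told apart.

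Promoter sequences were looked up for all 10 genes in a RefSeq table (GRCm38.p6), which matched 7 of them with 9 windows of 250 bases before a transcript start. The 3 windows shown belong to Vegfa and Vegfb, which were lowest in control replicate 3, and to Apln, which was highest there. Capitals mark the GC box GGGCGG on either strand, a motif that Sp-family factors bind.

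Vegfa, chr17:46032378-46032627, minus strand: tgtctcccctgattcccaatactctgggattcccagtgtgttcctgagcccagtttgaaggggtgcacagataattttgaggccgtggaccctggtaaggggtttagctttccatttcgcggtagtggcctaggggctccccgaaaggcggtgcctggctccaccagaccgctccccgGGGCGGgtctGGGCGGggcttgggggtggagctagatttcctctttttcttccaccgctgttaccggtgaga
Vegfb, chr19:6987652-6987901, minus strand: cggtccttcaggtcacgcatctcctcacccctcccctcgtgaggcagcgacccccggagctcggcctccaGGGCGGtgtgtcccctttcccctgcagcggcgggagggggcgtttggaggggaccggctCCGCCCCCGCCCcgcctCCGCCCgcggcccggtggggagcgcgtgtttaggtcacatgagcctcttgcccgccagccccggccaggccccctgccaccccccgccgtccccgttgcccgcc
Apln, chrX:48034854-48035103, minus strand: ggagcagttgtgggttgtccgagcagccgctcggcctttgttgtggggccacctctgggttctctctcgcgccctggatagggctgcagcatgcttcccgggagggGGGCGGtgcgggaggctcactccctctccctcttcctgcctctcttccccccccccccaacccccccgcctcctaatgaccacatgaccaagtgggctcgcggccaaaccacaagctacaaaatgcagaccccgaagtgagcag

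The Vegfb window held 4 GC boxes, starting 180, 121, 115 and 104 bases before the transcript start, the middle pair directly abutting, the Vegfa window 2 and the Apln window 1. A GC box lay in 8 of the 9 windows, all but 1 of the Pgf windows, and in 32.7% of 32851 promoter windows of this length. The windows shown are 59.2%, 76.4% and 65.2% G and C in the order printed, against a median of 52.4% over all windows, and the part of base composition in the GC box count was not tested. The core of the hypoxia response element, ACGTG on either strand, lay in 1 of the 9 windows, that before a second Vegfa start inside the gene, and in 16.6% of all windows. Of that Vegfa window 218 of 250 bases lie in annotated exons, as do all 250 of both Pgf windows. Sequence further upstream than 250 bases was not searched. None of the 9 windows held an AP-1 site (TGANTCA), which 6.75% of all windows held.

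Angpt1 separated the groups most clearly, higher in Treg, while Vegfa and Kdr were close between the groups. Angpt2 was lower in Treg, largely through control replicate 3 (log2 fold change −0.84 with that library and −0.30 without it). By edgeR's quasi-likelihood test with Benjamini-Hochberg adjustment, 0 of the 10 genes passed an adjusted p of 0.05, and 0 of 17365 tested genes did (0%). At an unadjusted p under 0.05 there was 1 of 10, Angpt1, against 16.5% of all genes (8.23% higher in Treg and 8.31% lower). By DESeq2 and by edgeR without control replicate 3, 1 of 10 was called, again Angpt1, where 3.75% and 1.3% of genes were called (1.86% and 0.674% higher in Treg). Without control replicate 3 and Treg replicate 3 together 0 of 10 was called, against 0.684% of genes (0.322% higher). In 4 of 10 genes the groups did not overlap (Angpt1, Vegfb and Flt1 higher in Treg, Angpt2 lower), against 25.4% of all genes, 13.7% higher and 11.7% lower. Of the 10 fold changes, 7 were above 0, with a median of 0.14 on the log2 scale, where the median over all genes was −0.02.

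**Figure D1:**
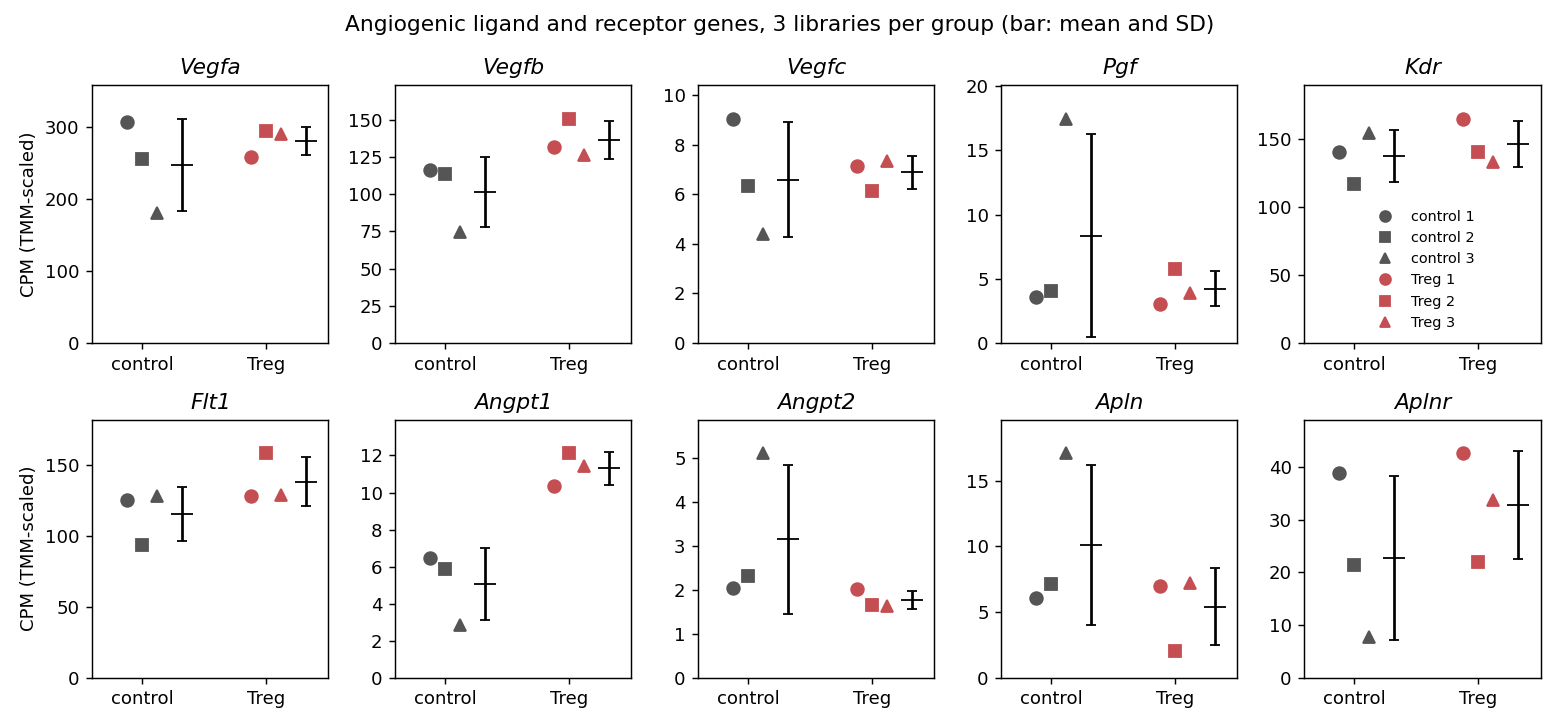
Level of each gene in CPM on TMM-scaled library sizes (vertical axes, linear from 0) in the 3 control and 3 Treg libraries, with the mean and SD of each group beside the points. Angpt1 stands at 2.86 to 6.46 CPM in the control libraries and 10.4 to 12.1 in the Treg libraries, and control replicate 3 (grey triangle) is the lowest or highest library for 8 of the 10 genes.

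Among the VEGF ligands, Vegfa, the main driver of capillary growth, was abundant and similar in both groups. Control replicates 1 to 3 had 307, 255 and 180 CPM, and Treg replicates 1 to 3 had 257, 293 and 290. Control replicate 3 was lowest and control replicate 1 highest, so the groups overlapped (log2 fold change 0.18 ± 0.21 SE, edgeR adjusted p = 0.665). Without control replicate 3 the fold change was −0.004.

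Vegfb encodes a ligand of VEGFR1 that is plentiful in heart muscle. Its levels were 116, 114 and 74.5 CPM in control and 132, 151 and 126 in Treg, that is 102 ± 23.4 and 136 ± 12.8 (mean ± SD, n = 3). Every Treg library lay above every control library, although Treg replicate 3 exceeded control replicate 1 by little. The log2 fold change was 0.43 ± 0.19 (SE; edgeR adjusted p = 0.322), and 0.24 without control replicate 3, the lowest of the 6. Of 12 heart muscle markers, 9 had fold changes above 0 and 3 below, with a median of 0.29 (0.24 without control replicate 3). By edgeR 0 of 12 passed. Their summed level was 44290 to 63360 CPM over the control libraries, lowest in control replicate 3, and 54100 to 72940 over the Treg libraries. In that sum, unlike in Vegfb, the groups overlapped, and control replicate 1 lay above Treg replicates 1 and 3. The part of these markers in the Vegfb level was not tested.

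Vegfc, the ligand of the lymphatic receptor VEGFR3, was much lower, at 9.05, 6.32 and 4.41 CPM in the control libraries and 7.16, 6.13 and 7.35 in Treg. The Treg libraries lay within the control range (0.06 ± 0.27, edgeR adjusted p = 0.922). The fold change was −0.16 without control replicate 3 and 0.37 without control replicate 1.

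Pgf encodes placental growth factor, a VEGFR1 ligand induced in injured or loaded tissue. Control replicate 3 had 17.5 CPM, while the other control libraries had 3.61 and 4.0045 and the Treg libraries 3.07, 5.73 and 3.89. The log2 fold change of −0.98 ± 0.62 (edgeR adjusted p = 0.444) therefore rested on that library and was 0.15 without it.

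The VEGF receptor genes varied least of the 10, by the ratio of the highest to the lowest library. Kdr measured 140, 117 and 154 CPM in the control libraries and 165, 140 and 133 in the Treg ones, and the groups overlapped (0.09 ± 0.16, edgeR adjusted p = 0.781). Its fold change came to −0.01 when control replicate 2 was left out and to −0.002 when Treg replicate 1 was. Flt1 stood at 125, 93.5 and 128 CPM in control, and 128, 158 and 129 in Treg libraries (0.26 ± 0.17 on the log2 scale, edgeR adjusted p = 0.456). Its groups did not overlap, but only just: control replicate 3 had 128.1 CPM and Treg replicate 1 128.3, a gap far smaller than the spread within either group. Without control replicate 2, the lowest library, the Flt1 fold change was 0.13.

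Endothelial markers, with which the receptor genes are shared, gave 0 of 19 past an adjusted p of 0.05 and a median log2 fold change of −0.10 (0.01 without control replicate 3). Their summed level was 728 to 1093 CPM in control and 813 to 903 in Treg. Control replicate 3 was highest in that sum, with Pecam1, the platelet-endothelial adhesion molecule, at 263 CPM against 128 to 157 elsewhere. Pecam1 was an extreme marker, as the median marker lay only 0.178 above its mean over all libraries there on the log2 scale. Kdr lay 0.134 and Flt1 0.03 above their own means in control replicate 3. The part of the endothelial markers in the receptor levels was not tested.

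Neither angiopoietin gene passed the edgeR threshold with all 6 libraries, and their fold changes had opposite signs. Angpt1 gave 6.46, 5.86 and 2.86 CPM in the control libraries, against 10.4, 12.1 and 11.4 with Treg. The lowest Treg value lay above the highest control value, and the Treg libraries were close to each other, with group values of 5.06 ± 1.93 and 11.3 ± 0.888 CPM (mean ± SD, n = 3). The log2 fold change was 1.16 ± 0.29 (SE), or 2.23-fold, with edgeR adjusted p = 0.176, and 2.78% of all tested genes had a smaller p. DESeq2 called it higher (adjusted p = 0.0142), and over all alternatives the adjusted p ran from 0.0142 to 0.593. Without control replicate 3 the fold change was 0.88 and passed (edgeR adjusted p = 0.0393). Without control replicate 3 and Treg replicate 3 together it was 0.86 and did not pass (edgeR adjusted p = 0.0819). Over all omissions it ranged from 0.86 to 1.38.

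The Angpt1 gene (GRCm38 chromosome 15, 42424723 to 42676977, minus strand) shares 737 exonic bases with Gm17473, an annotated antisense RNA, which had 4.5 to 10 counts in control and 16.5 to 25.5 in Treg. Angpt1 itself had 85 to 184 and 314 to 364 counts. The library kit keeps strand, but the counting option was not stated in the labels, so a small part of the antisense and Angpt1 counts may have been exchanged. No other member had exons shared with another annotated gene.

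Angpt2, the antagonist released from activated endothelium, was scarce. It had 2.04, 2.32 and 5.12 CPM in control and 2.01, 1.66 and 1.63 in Treg, which is 46 to 152 counts per library. Every Treg library lay below every control library, with Treg replicate 1 and control replicate 1 nearly equal and in the other order before scaling (61 and 58 counts). The log2 fold change was −0.84 ± 0.38 (SE; edgeR adjusted p = 0.321), and −0.30 without control replicate 3, the highest library by far.

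Other genes of the angiopoietin system gave 0 of 5 past the threshold, with a median log2 fold change of 0.20. Tek, which encodes Tie2, had a mean of 59.3 ± 8.83 CPM in control hearts and 56.8 ± 5.64 in Treg hearts (−0.06), its co-receptor gene Tie1 had 0.20, and Ptprb, the phosphatase that switches Tie2 off, −0.08. The receptor side of this system thus overlapped between the groups while its agonist gene Angpt1 did not.

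Apln was at 6.04, 7.12 and 17.1 CPM in control and 6.99, 2.06 and 7.22 in Treg. Control replicate 3 was the highest and Treg replicate 2 the lowest of the 6 libraries, and the other 4 lay close together. The log2 fold change was −0.89 ± 0.55 (edgeR adjusted p = 0.436). It came to −0.27 when control replicate 3 was left out and to −0.50 when Treg replicate 2 was. Aplnr, the receptor gene, ran the other way in control replicate 3: it had 39.0, 21.4 and 7.81 CPM in control and 42.6, 22.1 and 33.7 in Treg. The groups overlapped (0.53 ± 0.52, edgeR adjusted p = 0.612), and the fold change ranged from 0.12 without control replicate 3 to 1.17 without control replicate 1.

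Of 3 further apelin system genes, Apela, the second ligand of the receptor, had 0 counts in all libraries, and 0 of the 2 tested passed the threshold. Mme, neprilysin, which degrades apelin, had a log2 fold change of 0.71 (edgeR adjusted p = 0.263). Without control replicate 3, Mme had 1.02 and passed (edgeR adjusted p = 0.0415). Without control replicate 3 and Treg replicate 3 together it had 1.12 and passed (edgeR adjusted p = 0.0476).

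**Figure D2:**
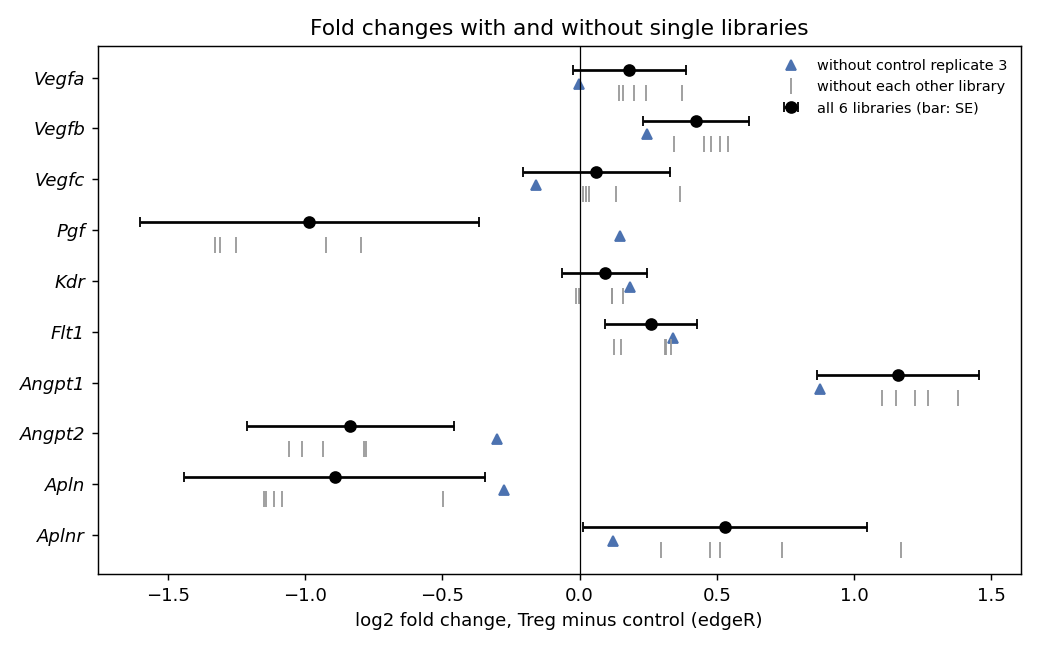
Log2 fold change, Treg minus control, of each gene with all 6 libraries (black, bar is the SE), without control replicate 3 (blue triangles) and without each other library (grey ticks). Angpt1 stays at 0.88 or above throughout the single omissions, whereas Pgf goes from −0.98 to 0.15 and Angpt2 from −0.84 to −0.30 when control replicate 3 is left out.

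Per kilobase of annotated exon, the ligand genes spanned a wide range of levels. Averaged over the 6 libraries, Vegfb stood at 74.1 CPM per kb and Vegfa at 61.5, followed by Kdr at 15.7, Flt1 at 9.40 and Aplnr at 7.51. Vegfc had 2.75, Apln 2.46, Pgf 2.17, Angpt1 1.57 and Angpt2 0.667. Vegfb and Vegfa overlapped over the libraries (46.4 to 94.0 and 41.9 to 71.6), while Kdr, at 12.9 to 18.3, was clear of both and of Flt1, at 6.92 to 11.7. The gap between Kdr and Flt1 rests on their merged exon lengths of 9030 and 13504 bases. In CPM they overlapped, at 117 to 165 and 93.5 to 158. Aplnr ranged from 2.11 to 11.5 and overlapped both Flt1 and Vegfc. The 5 least abundant genes overlapped with their neighbours in this order.

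Ratios within a library do not depend on scaling. They are given per kb, with an exact two-sided permutation test over the libraries, which at 3 against 3 cannot go below p = 0.1. The Angpt2 to Angpt1 ratio was 0.447, 0.56 and 2.52 in the control libraries and 0.276, 0.195 and 0.203 in the Treg libraries. Angpt1 thus exceeded Angpt2 in 5 of 6 libraries, and the order was reversed in control replicate 3. Every Treg ratio lay below every control ratio, (mean log2 difference −1.95, exact p = 0.1, adjusted over the 4 ratios 0.4), and the difference was −1.17 without control replicate 3.

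The Apln to Aplnr ratio, ligand over receptor, was 0.182, 0.391 and 2.57 in control and 0.193, 0.11 and 0.252 in Treg. The groups overlapped (log2 difference −1.70, exact permutation p = 0.3, adjusted 0.533), and the difference was −0.61 without control replicate 3. The Kdr to Flt1 ratio, signalling receptor over decoy, was 1.68, 1.87 and 1.8 in control and 1.92, 1.33 and 1.55 in Treg (−0.17, exact permutation p = 0.4, adjusted 0.533). The Vegfa to Flt1 ratio was 7.73, 8.6 and 4.42 in control and 6.33, 5.84 and 7.11 in Treg (−0.05, exact permutation p = 0.9, adjusted 0.9). In these 3 ratios the groups overlapped.

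**Figure D3:**
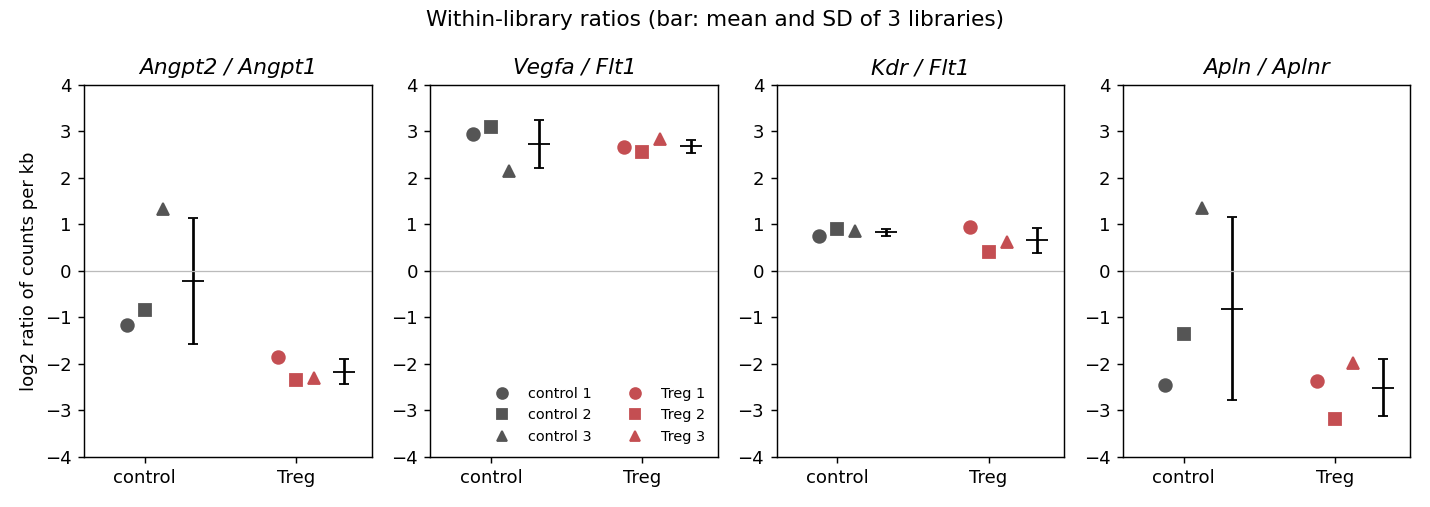
Log2 ratio of counts per kb between 2 genes within each library (vertical axis) for 4 gene pairs, with the mean and SD of each group beside the points. The Angpt2 to Angpt1 ratio is lower in every Treg library than in every control library, and control replicate 3 (grey triangle) lies above 0 for Angpt2 to Angpt1 and for Apln to Aplnr, where the other 5 libraries lie below it.

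Much of the variation of the 10 genes lay within the control group. Control replicate 3 was the highest library for 3 of them (Pgf, Angpt2 and Apln) and the lowest for 5 (Vegfa, Vegfb, Vegfc, Angpt1 and Aplnr). That is 8 of 10, where this library was highest or lowest for 65.2% of all tested genes. It was over 2-fold above every other library at 3 of the 10 genes and over 2-fold below at 2. The coefficient of variation was smaller in the Treg than in the control group for 10 of 10 genes, and for 77% of all tested genes. Control replicate 3 also held the most neutrophil marker RNA (5 of 6 markers tested, summed level 6.60 to 35.6 CPM in control and 7.85 to 18.0 in Treg, Ly6g at 0 to 4 counts). It held the least erythroid RNA (4 of 4 markers, 225 to 2227 CPM in control and 848 to 1486 in Treg). The summed level of T cell markers was also highest in control replicate 3, at 17.6 CPM (3 of 7 markers tested) against 2.42 to 4.70 in the other 5 libraries. That rested on Cd3e, as the median tested marker lay only 0.08 above its 6-library mean there on the log2 scale. Of the 17.6 CPM, Cd3e, a chain of the T cell receptor complex, made up 15.7, while Cd3d had 0 to 3 counts and Trac 0 to 13 in any library. The log2 fold change of Cd3e was −3.76 (edgeR adjusted p = 0.177, DESeq2 adjusted p = 0.000176), and −2.07 without control replicate 3 (edgeR adjusted p = 0.0572). The part of these markers in the levels of the angiogenic genes was not tested.

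Hypoxia response genes, the usual inducers and co-targets of Vegfa, lay on both sides of 0. Of 24 tested, 0 passed the threshold by edgeR. Fold changes were above 0 in 7 and below in 17, with a median of −0.17, but without control replicate 3 they were above 0 in 11 and below in 13, with a median of −0.13. At an unadjusted p under 0.05, 6 of the 24 were lower and 1 higher, where 8.31% and 8.23% of all tested genes were. Hif1a, the oxygen-regulated transcription factor, measured 132, 138 and 128 CPM in the control libraries and 95.7, 90.7 and 101 in the Treg ones. The groups were well apart for Hif1a (−0.47 ± 0.12, edgeR adjusted p = 0.17, DESeq2 adjusted p = 0.00854), with −0.49 without control replicate 3. Car9, a carbonic anhydrase induced by hypoxia, stood at 4.46 ± 1.77 and 1.62 ± 0.606 CPM (−1.45, edgeR adjusted p = 0.177, DESeq2 adjusted p = 0.0142). The glucose transporter gene Slc2a1 had −0.45 (edgeR adjusted p = 0.262). The member higher at that p was P4ha1, a collagen prolyl hydroxylase (0.62, edgeR adjusted p = 0.28). By DESeq2, 2 of the 24 were called, Hif1a and Car9, against 3.75% of all genes.

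Tip cell and Notch genes, which mark and restrain the leading cells of a sprout, were mixed. By edgeR 0 of 15 passed, 7 had fold changes above 0 and 8 below, and the median was −0.04. Without control replicate 3, 9 of the 15 were above 0, and the median was 0.12. Esm1, endocan, a VEGF-induced tip cell product, averaged 1.598 ± 0.598 CPM in the control group and 3.68 ± 1.16 in the Treg group (1.20 ± 0.35, edgeR adjusted p = 0.213), higher in 3 of 3 Treg libraries. Hey1, a Notch target, had 0.64 and Hes1, another, −0.46 (edgeR adjusted p = 0.229 and 0.283). Igfbp3, an insulin-like growth factor binding protein, stood at 65.3 ± 28.97 and 28.0 ± 1.92 CPM (−1.22 ± 0.29, edgeR adjusted p = 0.16). It was called lower by DESeq2 (adjusted p = 0.0039) and by edgeR without control replicate 3 (−0.80, adjusted p = 0.0294), but not without control replicate 3 and Treg replicate 3 together (−0.79, edgeR adjusted p = 0.0615).

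Of the other VEGF ligands and receptors, 0 of 4 passed. Nrp1, a neuropilin co-receptor of VEGFR2, had 0.25, Nrp2 0.21 and Flt4, the gene of VEGFR3, −0.16, with overlapping groups in each. Genes of the signalling chain below the receptors gave 0 of 26 tested, with a median of −0.06 (0.02 over 27 tested without control replicate 3). Pik3r1, a regulatory subunit of PI3-kinase, had a mean of 82.2 ± 2.44 CPM in control hearts and 127 ± 16.8 in Treg hearts (0.62 ± 0.14, edgeR adjusted p = 0.145, DESeq2 adjusted p = 0.00549). Src, the kinase that relays VEGFR2 signals to the junctions, stood at 11.1 ± 1.12 and 7.44 ± 0.383 CPM (−0.58 ± 0.15, edgeR adjusted p = 0.18, DESeq2 adjusted p = 0.0371). Map2k1, the ERK pathway kinase MEK1, had −0.37 (edgeR adjusted p = 0.219).

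Other angiogenic ligands and receptors gave 0 of 15 by edgeR with a median of −0.15. Hbegf, a heparin-binding ligand of the EGF receptor, had 54.0, 54.7 and 91.2 CPM in control and 27.1, 30.6 and 32.4 in Treg. Its groups were well apart (−1.15 ± 0.22, edgeR adjusted p = 0.124), and it was called lower by DESeq2 (adjusted p = 5e-04) and by edgeR without control replicate 3 (−0.86, adjusted p = 0.0237). Without control replicate 3 and Treg replicate 3 together Hbegf had −0.92 and was called (edgeR adjusted p = 0.0449), where 0.684% of genes were. Pdgfd, a ligand of PDGF receptor beta on mural cells, had 0.63 and Pdgfa −0.52 (edgeR adjusted p = 0.225 and 0.295). Without control replicate 3 they had 0.47 and −0.24.

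Angiogenesis inhibitors gave 0 of 15 by edgeR with a median of −0.12 (−0.04 without control replicate 3). Vash2, a vasohibin that is an exception in this list since it has been described as promoting vessel growth, stood at 2.01 ± 0.567 CPM in control libraries and 0.564 ± 0.229 in Treg ones. It had a log2 fold change of −1.82 ± 0.36 (edgeR adjusted p = 0.132, DESeq2 adjusted p = 0.0043). Sema3f, a semaphorin that acts through Nrp2, had −0.71 (edgeR adjusted p = 0.212). Cnmd, chondromodulin, was barely detected, at 0.0673 to 0.105 CPM in the control libraries and 0.429 to 0.911 in Treg (2 to 29 counts per library, edgeR adjusted p = 0.0989), and no fold is given at such counts.

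**Figure D4:**
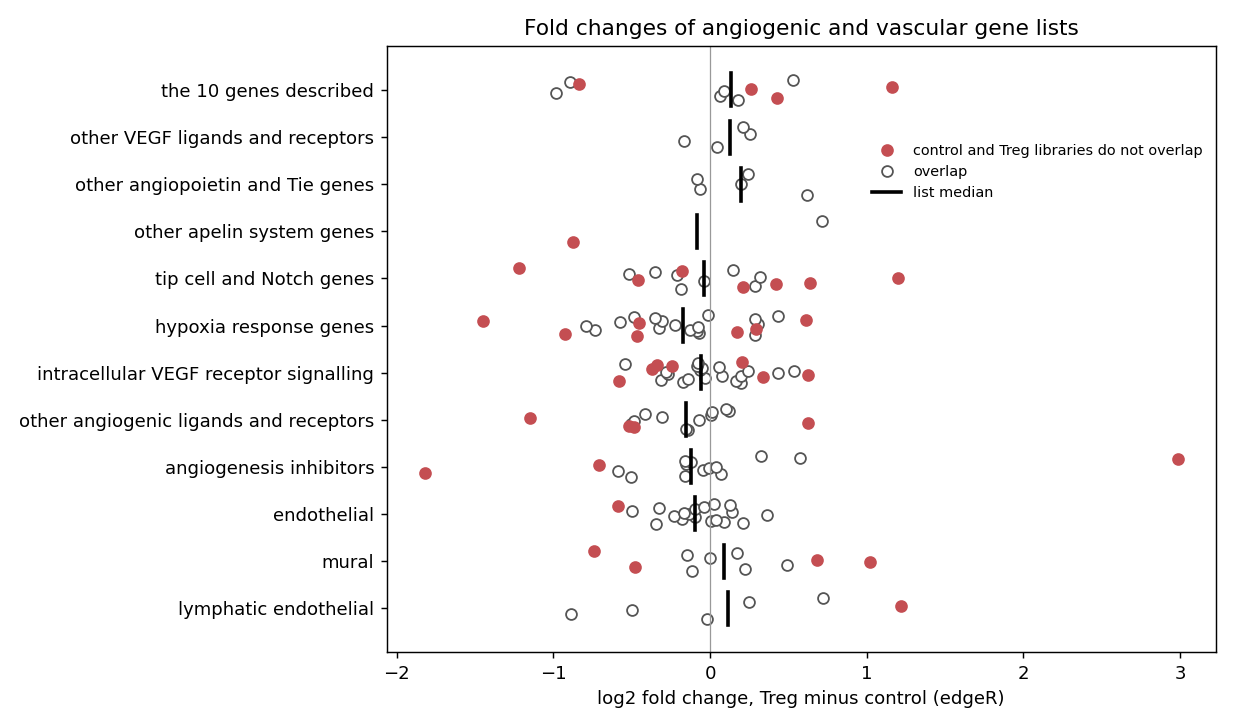
Log2 fold change, Treg minus control (horizontal axis), of every tested gene in the angiogenic and vascular lists, 1 point per gene, red where the control and Treg libraries do not overlap and open where they do, with a bar at each list median. With all 6 libraries, the medians lie between −0.17 for hypoxia response genes and 0.20 for the other angiopoietin and Tie genes. Genes lie on both sides of 0 in every list.

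The patterns of Angpt1 and Angpt2, the members with the smallest p, were compared with all other genes at a mean of at least 1 CPM by Pearson correlation of log2 CPM over the 6 libraries, as a description. Closest to Angpt1 were Mfap3l (0.9987), the noncoding Gm16576 (0.9984) and Acrbp (0.9983). Closest to Angpt2 were Fpgs (0.999), the pseudogene Gm14494 (0.9981) and Il20rb (0.9975). With 6 points of which control replicate 3 lies far out, such values are common: 1307 and 1189 of 14959 genes were above 0.9.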

How the data were processed

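Per the labels' protocols, RNA came from frozen left ventricle, and stranded mRNA libraries were read in pairs. The tools named in the submitters' processing notes are HISAT2 2.1.0, Trimmomatic 0.39, Cuffdiff 2.2.1 and featureCounts 2.0.6, with the build GRCm38, but no roles, counting options or annotation release were found in the labels. The authors deposited estimated counts, not normalized, of which 46.5% to 50.0% of those above 0 are fractional; the cause is not given, and reads shared between similar genes may have been divided. The 6 further columns match no sample here and were not used. Symbols, positions and exon lengths (all exons of a gene merged) are from GENCODE M21 (GRCm38), which named 47224 IDs.

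Counts were rounded to the nearest whole number, ties upwards. The single contrast, Treg against control, was fitted over all genes with edgeR 4.0.16 in R 4.3.3 (filterByExpr, TMM, legacy robust quasi-likelihood F test, two-sided, Benjamini-Hochberg, threshold 0.05). SE is the log2 fold change over the square root of F. Ratios used counts plus 0.5. The design had assumed raw counts. The labels do not say that libraries came from separate animals, and p-values measure the spread between libraries. Alternatives were DESeq2 1.42.0, limma-voom (limma 3.58.1), the newer dispersion method, other scalings and filters, removal of mitochondrially encoded genes, a replicate block and omitted libraries. Scripts were tested on simulated data. Members, gene lists and tests were chosen with earlier results of these data known. Named are the 10 members, up to 3 genes per list with the smallest p, genes singled out by a count, and the 3 genes most like each of 2 members. The values of 1 gene the rule names are not reported here. Tie1, Ptprb, Hes1, Nrp2, Pecam1, P4ha1, Prox1, Mmrn1, Lyve1, Cd3d and Trac fall partly outside that rule or were picked after their values were seen.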

Additional observations from a re-analysis of the deposited data

How the results depend on the processing

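The number of genes past the threshold, 0 with all 6 libraries by edgeR (2873 at an unadjusted p under 0.05), was 650 by DESeq2, 38 without a filter on low counts, 230 without control replicate 3 and 119 without control replicate 3 and Treg replicate 3 together. It was 0 under the other alternatives run, limma-voom and the 5 other single omissions included, a range over single omissions of 0 to 230. Among the 10 genes, 1 passed by DESeq2 and 1 without control replicate 3, Angpt1 each time, a range over single omissions of 0 to 1. The cause was not tested, although control replicate 3 is by construction the library absent from the last.

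Log2 fold changes reversed for Vegfa (−0.0039), Vegfc (−0.16) and Pgf (0.15) without control replicate 3, and without that library and Treg replicate 3 together (−0.038, −0.22 and 0.20). Kdr was at −0.0133 when control replicate 2 was omitted and −0.0016 when Treg replicate 1 was. The highest values over the single omissions were 0.375 for Vegfa, 0.366 for Vegfc and 0.185 for Kdr, and the lowest for Pgf was −1.33. The Vegfa to Flt1 difference lay between −0.35 and 0.13 over the omissions, reversing when control replicate 1 (0.0556), control replicate 2 (0.133) or Treg replicate 2 (0.013) was omitted. Angpt1, Angpt2, Apln, Aplnr, Vegfb and Flt1 and the other 3 ratios kept their sign under every alternative run.

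The labels do not say that shared replicate numbers mark a litter, batch or day, so the main fit had no block. Same-numbered libraries did not deviate together (correlations of deviations from group means −0.145, −0.235 and 0.042). Such deviations from means of 3 libraries cannot decide whether the numbers mark pairs. With the replicate number as a block, 0 genes passed, Angpt1 had 1.23 (edgeR adjusted p = 0.243), and the paired Angpt2 to Angpt1 difference was −1.95 (exact permutation p = 0.25, the smallest that 3 pairs allow). Angpt2, at 46 to 152 counts per library, is the member whose level depth limits most.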

Other observations

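Genes of mural cells, the pericytes and smooth muscle cells that wrap vessels and make angiopoietin 1, gave 0 of 10 past the threshold by edgeR and 2 of 10 by DESeq2, which called 3.75% of all genes. Of the 10 fold changes 5 were above 0 and 5 below, with a median of 0.09 on the log2 scale. Their summed level was higher in every Treg library (1091 to 1248 CPM) than in every control library (944 to 1055). That sum weighs the abundant genes most, and without Abcc9 it overlaps between the groups. Gene by gene, the libraries did not overlap for 2 of 10 higher and 2 of 10 lower in Treg, against 13.7% and 11.7% of all genes. Abcc9, a subunit of the ATP-sensitive potassium channel in pericytes and heart muscle, measured 182, 130 and 131 CPM in the control libraries and 284, 341 and 274 in the Treg ones (1.02 ± 0.18 SE, edgeR adjusted p = 0.114, DESeq2 adjusted p = 0.00014). Myh11, the smooth muscle myosin, stood at 21.3 ± 3.57 and 34.2 ± 2.09 CPM (0.68, edgeR adjusted p = 0.148, DESeq2 adjusted p = 0.0136). Cspg4, the pericyte proteoglycan NG2, ran the other way, at 44.4 ± 3.55 and 31.8 ± 3.99 CPM (−0.48, edgeR adjusted p = 0.207).

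Lymphatic endothelial genes gave 0 of 6 past the threshold by edgeR, with 3 fold changes above 0, 3 below and a median of 0.12. Without control replicate 3, 4 were above 0, with a median of 0.27. Ccl21a, the chemokine that draws cells into lymphatic vessels, had 5.61, 4.997 and 2.26 CPM in control and 10.8, 10.2 and 8.95 in Treg (1.22 ± 0.32 SE, edgeR adjusted p = 0.185). It was called higher by DESeq2 (adjusted p = 0.0183) and by edgeR without control replicate 3 (0.91, adjusted p = 0.0415), but not without control replicate 3 and Treg replicate 3 together (0.97, edgeR adjusted p = 0.0612). Reln, the secreted protein reelin, had 0.72 (edgeR adjusted p = 0.257), and 0.94 without control replicate 3 (edgeR adjusted p = 0.0868). Mmrn1, a multimerin, had 0.25, and Prox1, the transcription factor that defines lymphatic identity, −0.02. Ccl21a belongs to a family of near-identical gene copies, so its counts are uncertain. Lyve1, a hyaluronan receptor of lymphatic vessels and resident macrophages, was at 41.9 CPM in control replicate 3 and at 5.40 to 15.3 in the other 5 libraries. Its log2 fold change was −0.89 with all 6 libraries and 0.29 without control replicate 3.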
